A study of Mus musculus with 6 samples.

Results

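The transcripts described here are the 47 that carry the annotation biotype retained_intron among the 831 transcripts in a comparison of mouse testis on 2 diets. They come from 46 genes on 19 chromosomes, and none of the 47 is the canonical transcript of its gene. Testis RNA of C57BL/6 mice fed normal food for 8 weeks (3 libraries, numbered 7, 8 and 9) was compared with testis RNA after 8 weeks of high-fat food (3 libraries, numbered 10, 11 and 12). The libraries were strand-specific and made from 50 mg of whole testis, and the labels name no transgene, no other treatment, no age and no separate animal for each library, so p-values measure the spread between libraries, which may be partly technical. The authors' deposited table lists only transcripts below an adjusted p of 0.05, and its 831 are 0.868 percent of the 95751 that they tested. Every retained-intron transcript was therefore already listed for a difference between these same libraries, and the tests below are not independent of that listing.

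A retained-intron transcript is an RNA of a gene that still holds an intron, or a stretch of one, that the protein-coding RNA of the gene has lost by splicing. Such RNAs are often held in the nucleus or destroyed by nonsense-mediated decay, and they can also be intermediates that are spliced later. Testis has one of the most diverse sets of spliced RNAs among mammalian tissues, and intron retention is known as a regulated step in meiotic germ cells and spermatids.

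All 47 transcripts were found in GENCODE M21, the GRCm38 annotation, with the same biotype. In 28 of them at least 1 whole intron of a protein-coding transcript of the gene lies inside an exon, and 17 others begin or end inside such an intron. The remaining 2, of Poglut1 and Psma7, meet neither description. Together the 28 keep 45 introns with different ends, which fall into 38 separate stretches, and 40 of the 45 lie between coding exons. The sequences below, from the GENCODE M21 transcripts, are introns kept by transcripts whose values are given in full further on. They show what separates each from its spliced RNA. They are written 5′ to 3′ on the strand of the gene, and capitals mark the first 6 bases (the donor site) and the last 3 (the acceptor site).
Slc50a1 intron 2, chr3:89269951-89270061, minus strand: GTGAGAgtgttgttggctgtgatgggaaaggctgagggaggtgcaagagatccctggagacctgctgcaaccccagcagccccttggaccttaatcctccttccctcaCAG
Slc50a1 intron 1, chr3:89270140-89270385, minus strand: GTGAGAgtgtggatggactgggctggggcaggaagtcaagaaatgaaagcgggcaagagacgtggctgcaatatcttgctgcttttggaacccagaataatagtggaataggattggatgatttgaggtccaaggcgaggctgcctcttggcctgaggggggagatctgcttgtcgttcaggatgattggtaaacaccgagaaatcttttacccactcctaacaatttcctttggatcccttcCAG
Colgalt1 intron 11, chr8:71623297-71623492, plus strand: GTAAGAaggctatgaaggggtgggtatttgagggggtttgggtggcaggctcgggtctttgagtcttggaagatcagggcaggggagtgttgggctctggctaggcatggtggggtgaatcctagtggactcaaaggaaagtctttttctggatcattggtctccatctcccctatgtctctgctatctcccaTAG
Mycbpap intron 5, chr11:94512344-94512590, minus strand: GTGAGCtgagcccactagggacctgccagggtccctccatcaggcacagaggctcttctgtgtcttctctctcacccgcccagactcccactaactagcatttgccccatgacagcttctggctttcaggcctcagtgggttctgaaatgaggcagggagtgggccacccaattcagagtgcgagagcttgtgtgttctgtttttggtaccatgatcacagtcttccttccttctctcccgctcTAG
Cd2bp2 intron 2, chr7:127195159-127195360, minus strand: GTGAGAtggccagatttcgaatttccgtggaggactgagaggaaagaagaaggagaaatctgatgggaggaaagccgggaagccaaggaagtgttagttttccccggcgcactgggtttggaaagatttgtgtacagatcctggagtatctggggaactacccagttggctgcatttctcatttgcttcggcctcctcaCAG
Rpl41 intron 1, chr10:128548681-128548948, minus strand: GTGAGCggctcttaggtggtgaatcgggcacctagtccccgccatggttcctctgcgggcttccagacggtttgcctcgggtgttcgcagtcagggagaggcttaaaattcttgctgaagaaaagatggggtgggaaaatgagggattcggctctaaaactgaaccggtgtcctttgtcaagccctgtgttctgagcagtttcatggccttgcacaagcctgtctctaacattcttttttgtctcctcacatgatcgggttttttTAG
Trmt2b intron 9, chrX:134240181-134240354, minus strand: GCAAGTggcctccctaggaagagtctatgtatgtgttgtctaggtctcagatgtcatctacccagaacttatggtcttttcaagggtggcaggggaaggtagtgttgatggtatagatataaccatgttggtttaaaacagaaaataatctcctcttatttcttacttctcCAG
Nek8 intron 5, chr11:78170953-78171089, minus strand: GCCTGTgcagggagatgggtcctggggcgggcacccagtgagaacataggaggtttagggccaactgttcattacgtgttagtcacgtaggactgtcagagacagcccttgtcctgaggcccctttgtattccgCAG

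For Stag3 and Leng8 the kept introns are longer than 300 bases, and only their splice sites are shown, again because these transcripts have listed partners at the same locus. Each donor is given as 3 exon and 6 intron bases and each acceptor as 20 intron and 3 exon bases, with the terminal intron dinucleotide in capitals.
Stag3 intron 7 donor, chr5:138290914-138291329, plus strand: ctgGTgagc
Stag3 intron 7 acceptor: ttgtttcctctgactcaaAGcca
Leng8 intron 11 donor, chr7:4144339-4144711, plus strand: gctGTaagt
Leng8 intron 11 acceptor: tttgattctcttccctgaAGgtt
Leng8 intron 15 donor, chr7:4145474-4146940, plus strand: aacGTatgt
Leng8 intron 15 acceptor: ttctcctcttgtctccatAGctt

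The kept introns were short. Their median length was 202 bases (quartiles 137 and 329), against 1069 bases for the other 647 introns of the coding transcripts of the same genes, and 68.9 percent of them against 22.7 percent were under 300 bases. Short introns are a feature of the annotation class as well, since the 8676 introns kept by any retained-intron transcript of GENCODE M21 had a median of 277 bases. The GC content had a median of 55.0 percent in the kept introns and 51.4 percent in that class. Of the 45 introns, 41 (91.1 percent) begin with GT and end with AG, against 97.9 percent of the class. A further 3 (6.67 percent, against 1.19 percent) begin with GC and end with AG, and they belong to Trmt2b, Nek8 and Mutyh, whose transcripts were all lower on the high-fat diet. The donor letters GTAAG, read on the strand of the gene only, open 5 of the 45 introns (11.1 percent) and 20.9 percent of the introns of the class. These shares describe letters and annotation, and no test was made on them.

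**Figure D1:**
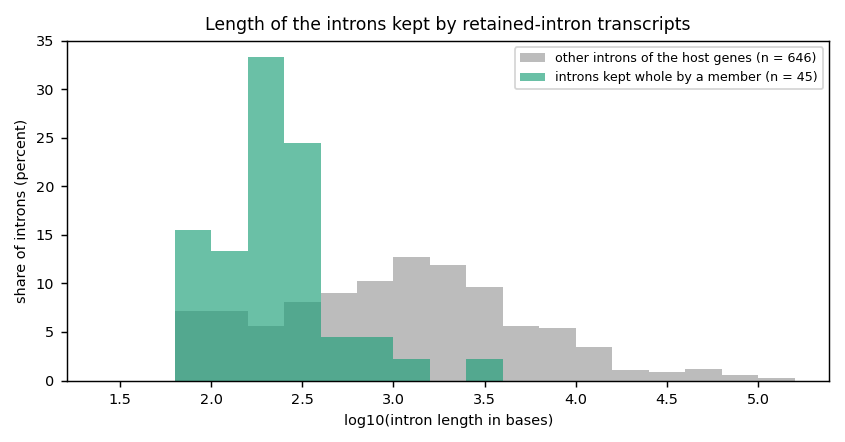
Length in bases, on a log10 scale, of the introns kept whole by a retained-intron transcript (green, n = 45) and of the other introns of the coding transcripts of the same genes (grey, n = 646 of at least 30 bases). Bars give the share of each group in percent, and the kept introns pile up near 200 bases, with a median of 202 against 1069 for the other 647.

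Many of the 47 transcripts share most of their bases with coding exons. A median of 15.7 percent of their bases lie outside every coding exon of the gene, against 42.0 percent for the retained-intron transcripts of GENCODE M21, with a range from 0.817 percent for Flvcr1 to 97.0 percent for Alms1, and 26 of the 47 are under 25 percent. The other bases lie in shared exons, and 280 of the 291 splice junctions of the 47 transcripts are also junctions of a coding transcript. Where the reads fell was not analysed. The deposited models keep the exon number of GENCODE in 47 of 47 transcripts but are longer in 33, by more than 1000 bases in 5. The model labelled Usf3 ENSMUST00000141015 has 12703 bases against 706 in GENCODE, of which 11997 are not in the annotated transcript. The others are the models of Stag3 (3111 bases added), Slc7a6 (2889), Colgalt1 (1388) and Dele1 (1165). In addition 4 transcripts overlap another gene on the same strand, so their counts are uncertain to that extent. On the opposite strand 8 overlap 1 or more genes, and whether the authors' counting kept the strands apart is not known here.

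Most of the retained-intron transcripts were lower on the high-fat diet: 32 of 47 (68.1 percent) were lower and 15 higher in the authors' deposited table. Over all 831 listed transcripts 44.6 percent were lower and 55.4 percent higher. The median log2 fold change in the authors' deposited table was -1.68 for the retained-intron transcripts and 1.42 for all listed ones. Among transcripts annotated as targets of nonsense-mediated decay, 19 of 44 were lower, and among long noncoding RNAs 27 of 45. Canonical coding transcripts had 30 of 89 lower, other coding transcripts 85 of 194 and assembled transcripts 173 of 398, as the plot of directions by class shows. No test of the retained-intron share against the other classes was made, because every transcript had been selected for a difference between the same libraries.

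**Figure D2:**
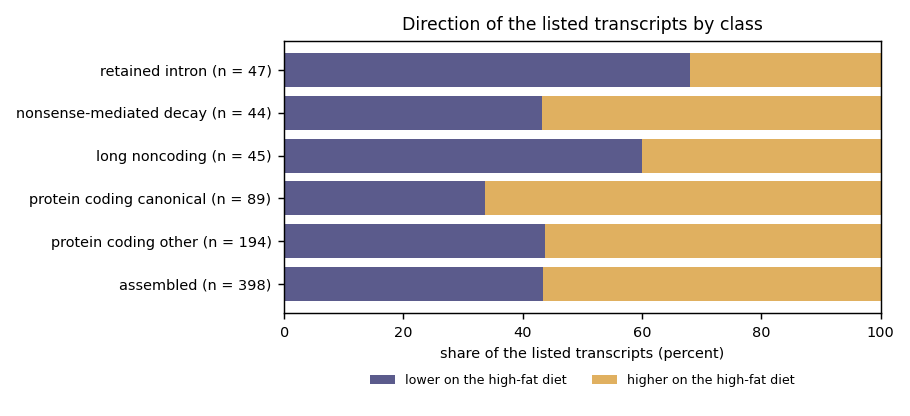
Share of listed transcripts, in percent, that were lower (purple) or higher (yellow) on the high-fat diet in the authors' deposited table, by transcript class. The retained-intron bar has 68.1 percent lower, and the canonical coding bar has 33.7 percent lower.

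Counts of all 831 transcripts added up to between 362790 and 490603 in a library, a fraction of its depth that is not known. The retained-intron transcripts took 2.27, 2.74 and 2.94 percent of these counts in normal-diet libraries 7, 8 and 9 and 1.06, 1.08 and 1.20 percent in high-fat libraries 10, 11 and 12. The diets did not overlap in this share, which is not independent of the listing by these same libraries. Stag3 alone made up between 40.1 and 50.1 percent of the retained-intron counts of a library. Without Stag3, the summed normalized counts of the lower transcripts were 4390, 5440 and 6323 on the normal diet and 1531, 1499 and 1447 on the high-fat diet. Normalized counts are the deposited counts divided by the authors' size factor of the library. Those of the 15 higher transcripts summed to 133, 115 and 111 on the normal diet and to 1058, 1336 and 1125 on the high-fat diet. The lower transcripts made up the larger sum in every library. Lower and higher were assigned from these same libraries, so the direction of both sums was fixed in advance. Each of the 47 had normal-diet and high-fat libraries that did not overlap, as did 91.3 percent of all listed transcripts. In 8 of the 47 every library of a diet had 0 counts, against 30.1 percent of all listed transcripts.

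With edgeR's quasi-likelihood test on the whole table, 43 of the 47 had enough counts to be tested and all 43 passed, 14 higher and 29 lower, at an adjusted p under 0.05. Of all 680 listed transcripts tested 99.7 percent passed, 55.7 percent higher and 44 percent lower, so the share that passed says nothing about retained introns. The transcripts of Abcd4, Rps3, Samd11 and Usf3 were below the count filter. With edgeR p-values adjusted over all 95751 transcripts that the authors tested, 0 of the 43 passed, while 43 had an unadjusted p under 0.05. These p-values came from a fit on the listed transcripts only, so they cannot show what a fit on all transcripts would call. In the authors' own adjustment all 47 were below 0.05. On the listed transcripts DESeq2 and limma-voom each called 43. Below, "rose" and "fell" refer to the edgeR test on the listed transcripts.

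**Figure D3:**
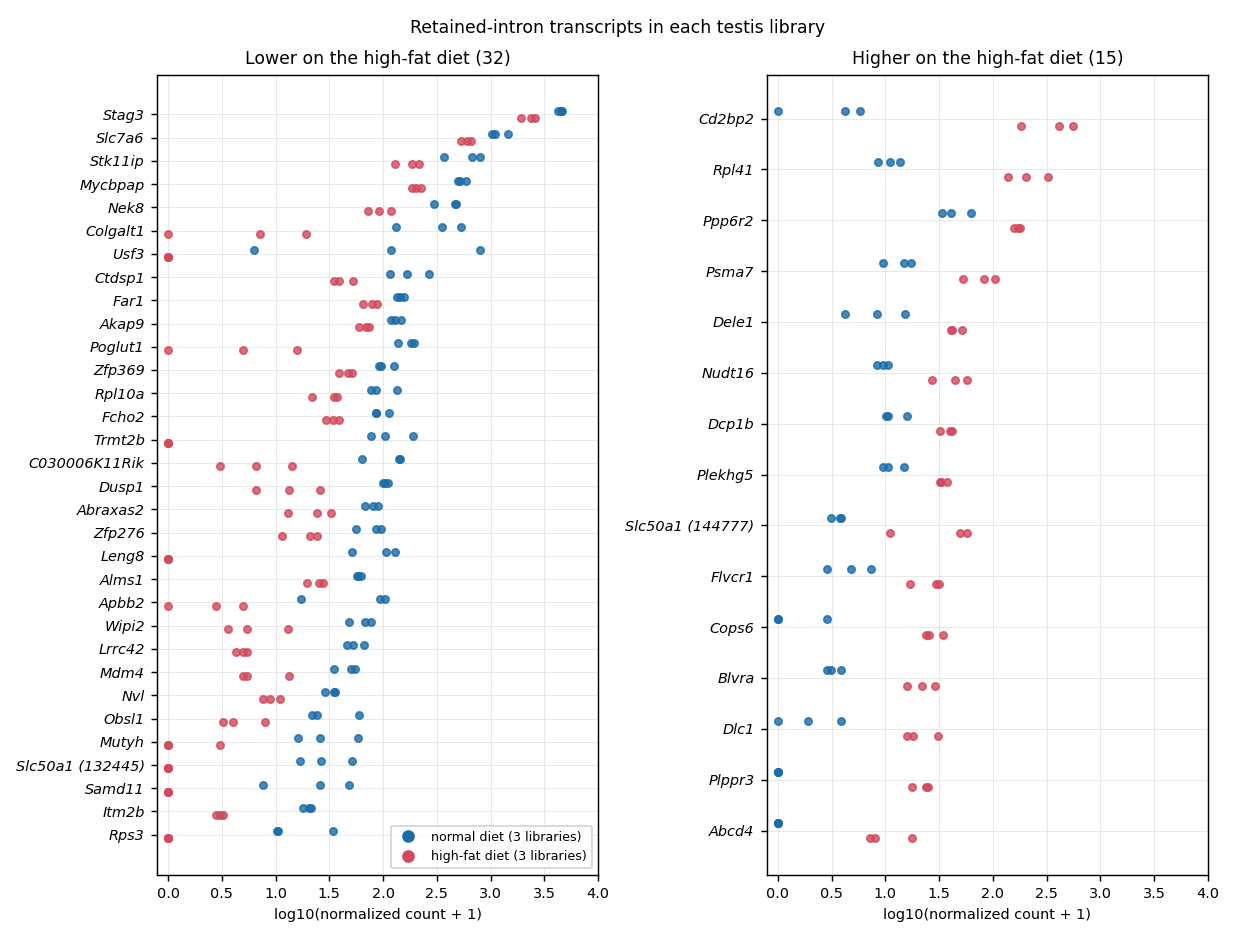
Normalized count plus 1, on a log10 scale, of each retained-intron transcript in each library, for the 32 lower on the high-fat diet (left) and the 15 higher (right). Blue points are the 3 normal-diet libraries and red points the 3 high-fat libraries, and in each row the colours do not overlap.

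Retained-intron transcripts of 5 genes of germ cells, cilia and centrosomes were all lower, as were 68.1 percent of all 47. The groups of host genes used from here on order the description, and no group was tested. Stag3 encodes a cohesin subunit of meiotic cells, and its transcript ENSMUST00000161113, the most abundant of the 47, lies on chromosome 5 from 138280509 to 138315504 with 33 exons. It had 3983, 4873 and 4882 counts on the normal diet and 2175, 1896 and 2937 on the high-fat diet. The normal-diet libraries all lie above the high-fat ones, and the level fell from 4458 ± 204 to 2291 ± 352 normalized counts (SD, n = 3; log2 fold change -0.96 ± 0.19 SE; edgeR adjusted p = 0.00553). It keeps intron 7 of 33, which has 416 bases, and 10.3 percent of its annotated bases are outside coding exons. The deposited model that was counted has 7780 bases against 4669 in GENCODE. Since whole testis was sequenced, fewer cells of a type and less RNA per cell cannot be told apart here.

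The Stag3 locus has 3 other listed transcripts, and all of them fell too. Both assembled transcripts span the locus with 34 exons. The first went from 4591, 2194 and 4379 counts to 723, 1034 and 837 (edgeR adjusted p = 0.00462). The second went from 5554, 2154 and 4329 to 774, 1146 and 1074 (edgeR adjusted p = 0.00634). The short coding transcript ENSMUST00000160729 has 7 exons and ends at 138290913, the base before the kept intron begins. It had 331, 285 and 29 counts on the normal diet and 11, 17 and 5 on the high-fat diet (adjusted p by edgeR = 0.0101). In normalized counts per kilobase of deposited length, the retained-intron transcript went from 573 to 294 and the assembled ones from 478 to 112 and from 519 to 128. The retained-intron share of the listed Stag3 counts was 27.5, 51.3 and 35.8 percent on the normal diet and 59.1, 46.3 and 60.5 percent on the high-fat diet, and these ranges overlap. Summed, the 4 transcripts fell from 12325 ± 3171 to 4138 ± 109 normalized counts (edgeR adjusted p = 0.00329).

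Mycbpap is named for its binding to the MYC-binding protein MYCBP. Its retained-intron transcript ENSMUST00000123496, on chromosome 11 from 94501347 to 94521850, keeps the 247-base intron 5 shown above. It had 556, 518 and 556 counts on the normal diet and 203, 185 and 229 on the high-fat diet, and fell from 532 ± 52.1 to 203 ± 19.2 normalized counts (log2 fold change -1.39 ± 0.31; edgeR adjusted p = 0.00740). The coding transcript ENSMUST00000093945 fell from 5620, 4415 and 3031 counts to 29, 159 and 463 (log2 fold change -4.44 ± 0.98; edgeR adjusted p = 0.00696). In normalized counts per kilobase the coding transcript went from 1320 to 60.8 and the retained-intron one from 151 to 57.7. The retained-intron share of the 2 transcripts was 9.003, 10.5 and 15.5 percent on the normal diet and 87.5, 53.8 and 33.1 percent on the high-fat diet, without overlap. This share was not tested, and the high-fat mean of the coding transcript was 199 normalized counts with library 12 and 95.6 without it. The sum of both fell (edgeR adjusted p = 0.00310).

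The transcript of Nek8, a kinase of the cilium, had 276, 498 and 501 counts on the normal diet and 65, 117 and 102 on the high-fat diet (log2 fold change -2.14 ± 0.40; edgeR adjusted p = 0.00505). The high-fat libraries are all below the lowest normal-diet one. It keeps intron 5 of 14, the 137-base intron shown above that opens with GC in the annotation. Of its annotated bases 4.75 percent are outside coding exons. Transcripts of the centrosome anchor Akap9 (130.6 ± 14.0 to 66.7 ± 7.25 normalized counts) and of the basal body protein Alms1 (58.2 ± 2.44 to 23.0 ± 3.91) also fell. The call for Akap9 (edgeR adjusted p = 0.0199) was lost without any single library of 8, 9, 10, 11 and 12, at adjusted p by edgeR from 0.0511 to 0.0684.

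Markers of the cells of the testis were looked up in the same table. Of 10 spermatocyte marker genes, Stag3 had the lower transcripts above, Mlh3, of mismatch repair, had a transcript with 0, 4 and 0 counts and then 93, 45 and 62, and an assembled transcript over Piwil1 was higher. Of 10 spermatid markers, assembled transcripts over Acr (10.02 ± 1.46 to 64.3 ± 36.1 normalized counts) and Crem (24.97 ± 5.38 to 1304 ± 1067) were higher. Of 8 spermatogonial markers a Nanos3 transcript was lower, with 12, 18 and 7 counts and then 1, 0 and 0. Of 8 Leydig cell markers a Hsd3b6 transcript is listed as lower, with 1590, 1722 and 8 counts on the normal diet and 15, 33 and 5 on the high-fat diet. Its diets overlap, because library 9 is as low as the high-fat libraries. Of 8 peritubular and stromal markers Col1a1 was higher (1617 ± 269 to 3456 ± 519), and 1 Pdgfrb transcript was higher and another lower. The lists of Sertoli cell, macrophage, adipocyte, blood and epididymis markers had 0 listed transcripts, and unlisted levels were not analysed here. The part of cell composition in the retained-intron values was not tested.

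**Figure D4:**
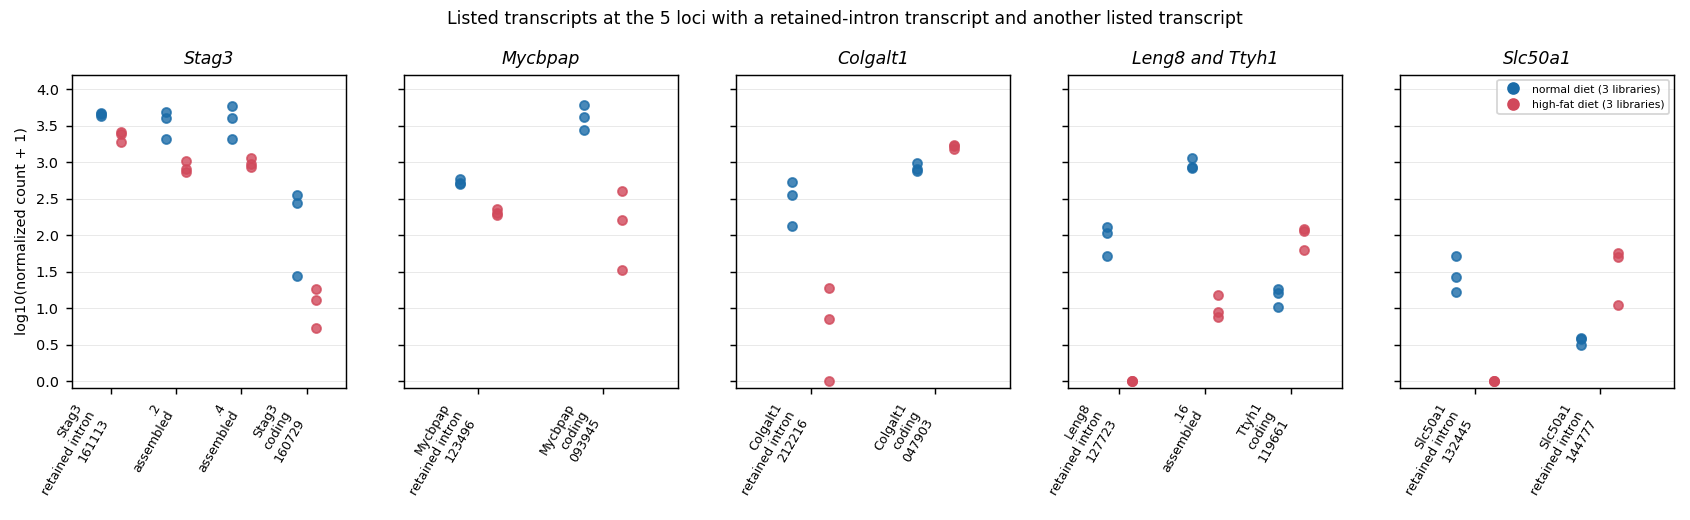
Normalized count plus 1, on a log10 scale, of every listed transcript at the 5 loci that hold a retained-intron transcript and another listed transcript. Blue points are the 3 normal-diet and red points the 3 high-fat libraries, labels that begin with a point are assembled transcripts, and 6-digit numbers are the ends of transcript identifiers. At Colgalt1, Slc50a1 and the joint locus of Leng8 and Ttyh1 the listed transcripts go in both directions, and at Stag3 and Mycbpap all are lower on the high-fat diet.

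The counts assigned to the retained-intron and the coding transcript of Colgalt1 went in opposite directions. Colgalt1 is a galactosyltransferase that modifies collagen, and its retained-intron transcript ENSMUST00000212216 on chromosome 8 from 71611171 to 71624911 keeps the 196-base last intron shown above. Of its annotated bases 13.1 percent are outside coding exons, and 9 of its 10 splice junctions are shared with the coding transcript. The deposited models of both end at the same base, and where the reads fell was not analysed. The retained-intron transcript had 124, 560 and 383 counts on the normal diet and 0, 18 and 7 on the high-fat diet, and fell from 339 ± 201 to 8.06 ± 9.16 normalized counts (log2 fold change -5.37 ± 1.31; edgeR adjusted p = 0.00875). The high-fat mean rests on library 11, without which it is 3.07. The coding transcript ENSMUST00000047903 had 919, 797 and 870 counts and then 1570, 1676 and 1714, and rose from 846 ± 116 to 1637 ± 117 (log2 fold change 0.95 ± 0.24; edgeR adjusted p = 0.00966). The retained-intron share of both was 11.9, 41.3 and 30.6 percent on the normal diet and 0, 1.06 and 0.407 percent on the high-fat diet. Their sum was 1185 ± 94.9 and 1645 ± 117 normalized counts and did not pass (edgeR adjusted p = 0.0792). With limma-voom and with DESeq2 the sum passed (adjusted p = 0.0199 and 0.00141), and with DESeq2 size factors its log2 fold change was -0.039 in place of 0.47 (edgeR adjusted p = 0.860).

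Slc50a1, a sugar transporter, has 2 retained-intron transcripts among the 47, and they went in opposite directions. ENSMUST00000132445 keeps intron 2 of 111 bases, with 24, 53 and 17 counts on the normal diet and 0 in each high-fat library, at least 10.2-fold lower (edgeR adjusted p = 0.00522). ENSMUST00000144777 keeps the same intron and intron 1 as well, and rose from 2, 3 and 3 counts to 44, 10 and 64 (log2 fold change 3.82 ± 0.76; edgeR adjusted p = 0.00590). The transcripts therefore share the 111-base intron and differ by the 246-base one, both shown above. Intron 1 also has an annotated form of 376 bases with another donor. Their sum was 26, 56 and 20 counts on the normal diet and 44, 10 and 64 on the high-fat diet, which overlap (edgeR adjusted p = 0.793), and the direction of the sum depended on the normalization.

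At Leng8, which encodes a protein with a SAC3 family domain, ENSMUST00000127723 had 47, 110 and 138 counts on the normal diet and 0 in each high-fat library, at least 31.5-fold lower (edgeR adjusted p = 0.00356). It lies on chromosome 7 from 4137084 to 4148177 and keeps introns 11 and 15, of 373 and 1467 bases. Only 533 bases of the transcript lie outside every coding exon, so most of intron 15 is exon in other coding transcripts. An assembled transcript with 27 exons that runs from the neighbouring gene Ttyh1 into Leng8 went from 1079, 864 and 927 counts to 6, 14 and 9 (edgeR adjusted p = 0.00183). The Ttyh1 transcript ENSMUST00000119661 rose from 14, 18 and 10 to 108, 112 and 70 counts (edgeR adjusted p = 0.00375). Summed over the locus, counts fell from 1049 ± 143 to 107 ± 32.6 normalized (edgeR adjusted p = 0.00275). Across all loci with at least 2 listed transcripts, 52.4 percent of sums passed, and over all loci 94.7 percent did, against 3 of the 5 loci here. For the other 41 retained-intron transcripts no other transcript of the locus is listed, so a change in splicing cannot be told apart from a change in the output of the gene.

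Of the other genes of RNA processing and decay, 3 had higher transcripts and 1 a lower one. Cd2bp2 is a component of the U5 small nuclear ribonucleoprotein of the spliceosome. Its transcript ENSMUST00000205525 on chromosome 7 from 127192023 to 127196603 had 3, 5 and 0 counts on the normal diet and 164, 560 and 466 on the high-fat diet. This is the most abundant of the higher transcripts, at 2.65 ± 2.43 and 384 ± 191 normalized counts (log2 fold change 7.12 ± 1.12; edgeR adjusted p = 0.00368), and it keeps the 202-base intron 2 shown above. The normal-diet mean is 1.60 without library 8. Of the annotated bases of this transcript 6.58 percent are outside coding exons, and its 5 splice junctions are all shared with coding transcripts. The deposited model that was counted has 3726 bases against 3072 in GENCODE. Trmt2b is an RNA methyltransferase gene, and its transcript ENSMUST00000145066 on chromosome X had 96, 197 and 83 counts and then 0 in each high-fat library, at least 40.9-fold lower (edgeR adjusted p = 0.00333). Its kept intron is number 9 of 12 and opens with GCAAGT, and 5.38 percent of its annotated bases are outside coding exons. Transcripts of the decapping cofactor Dcp1b (14, 10 and 10 counts, then 35, 31 and 46) and of the nuclear decapping enzyme Nudt16 (9, 9 and 8, then 24, 56 and 50) rose.

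Transcripts of ribosomal genes went both ways. Rpl41 encodes a very small protein of the large ribosomal subunit, and its transcript ENSMUST00000176184 on chromosome 10 keeps the 268-base intron 1 shown above. It had 12, 8 and 11 counts on the normal diet and 297, 202 and 158 on the high-fat diet, a rise from 10.2 ± 2.57 to 223 ± 95.8 normalized counts (log2 fold change 4.44 ± 0.51; edgeR adjusted p = 0.00206). The Rpl10a transcript fell from 71, 140 and 92 to 19, 36 and 39 counts (edgeR adjusted p = 0.00884). That of Nvl, an ATPase of ribosome assembly, fell from 32, 29 and 38 to 6, 10 and 9 (edgeR adjusted p = 0.00372). The Rps3 transcript, below the count filter, had 9, 35 and 10 counts and then 0 in each high-fat library, at least 5.83-fold lower, and its normal-diet mean is 9.39 normalized counts without library 8 in place of 17.4. Ribosomal protein genes have many processed copies in the genome, among which the authors' counting could have split reads, and this was not tested.

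All 5 transcripts of transcription factors, zinc finger genes and DNA repair were lower, beside 68.1 percent of all 47. The one labelled Usf3 had 5, 122 and 868 counts on the normal diet and 0 in each high-fat library, at least 103-fold lower, but library 9 held 86.8 percent of the normal-diet total and the mean went from 307 to 60.7 normalized counts without it. The Mutyh transcript, of a DNA glycosylase of base excision repair, had 54, 16 and 27 counts and then 0, 2 and 0 (edgeR adjusted p = 0.00590). Its normal-diet mean was 32.5 normalized counts and 20.1 without library 7, and without library 11 the high-fat counts are all 0. Transcripts of the zinc finger genes Zfp276 (77.6 ± 20.6 to 17.9 ± 6.56) and Zfp369 (103 ± 19.05 to 44.7 ± 6.52) fell. Samd11, below the count filter, had 44, 7 and 27 counts and then 0 in each high-fat library, at least 8.76-fold lower, with a normal-diet mean of 26.1 normalized counts and of 15.8 without library 7.

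Among genes of protein turnover and cell stress, 3 transcripts rose and 2 fell. The transcript of Psma7, a subunit of the proteasome core, rose from 8, 17 and 15 to 47, 103 and 93 counts (edgeR adjusted p = 0.00427). That of Cops6, a COP9 signalosome subunit, had 0, 0 and 2 counts on the normal diet and 22, 33 and 26 on the high-fat diet (adjusted p by edgeR = 0.00384), and without library 9 the normal-diet counts are all 0. Dele1, of the mitochondrial stress response, rose from 3, 15 and 8 to 37, 51 and 45, with a normal-diet mean of 8.28 normalized counts and of 5.28 without library 8. Mdm4, an inhibitor of p53, fell from 32, 56 and 53 counts to 4, 4 and 14, with a high-fat mean of 6.90 normalized counts and of 4.205 without library 12. Abraxas2, a scaffold of a deubiquitinating complex, fell from 84, 83 and 72 to 11, 23 and 36.

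Of 8 transcripts of phosphatase and signalling genes, 4 rose and 4 fell. The largest was that of Stk11ip, which binds the kinase LKB1, with 347, 699 and 870 counts on the normal diet and 196, 128 and 212 on the high-fat diet (log2 fold change -1.79 ± 0.45; edgeR adjusted p = 0.00934). Its diets do not overlap, although library 7 is close to the high-fat range. Ctdsp1, a phosphatase of the RNA polymerase II tail, fell from 107, 175 and 288 counts to 31, 38 and 58. Dusp1, the immediate early MAP kinase phosphatase, fell from 97, 115 and 107 to 5, 25 and 14, and its high-fat mean is 8.90 normalized counts without library 11 in place of 14.3. Apbb2, an adaptor of the amyloid precursor protein, fell from 87, 17 and 112 to 0, 4 and 2, with a high-fat mean of 1.92 and of 0.878 without library 11. The transcripts of Ppp6r2, a regulatory subunit of protein phosphatase 6 (58, 34 and 43 counts, then 156, 179 and 179), and of Plekhg5 (8, 10 and 15, then 33, 31 and 36) rose. That of Dlc1 rose from 0, 3 and 1 counts to 27, 17 and 17 (edgeR adjusted p = 0.00596), with a normal-diet mean of 1.26 and of 0.461 without library 8. Plppr3, a lipid phosphatase-related membrane protein, had 0 counts in each normal-diet library and 15, 23 and 27 in those of the high-fat diet, which is at least 7.18-fold higher (edgeR adjusted p = 0.00279).

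Transporters and metabolic enzymes were split as well, with 4 higher and 3 lower including both Slc50a1 transcripts. Slc7a6, an amino acid transporter, was the second most abundant of the 47, with 961, 1142 and 1581 counts on the normal diet and 596, 602 and 598 on the high-fat diet. The high-fat libraries are close to each other and lie below every normal-diet library (log2 fold change -0.999 ± 0.29; edgeR adjusted p = 0.0145), and the call was lost without library 9 (edgeR adjusted p = 0.0677) or library 12 (edgeR adjusted p = 0.0593). Far1, which makes fatty alcohols for ether lipids, fell from 144 ± 10.6 to 76.0 ± 11.03 normalized counts (edgeR adjusted p = 0.0252), a call lost without any single library of 7, 8, 9, 11 and 12 (adjusted p by edgeR from 0.0554 to 0.0811). The transcripts of the biliverdin reductase gene Blvra (2, 3 and 2 counts, then 19, 15 and 32) and of the haem and choline transporter Flvcr1 (6, 4 and 2, then 26, 16 and 35) rose, the latter resting on 20 bases outside coding exons. Abcd4, a lysosomal vitamin B12 transporter, was below the count filter, at 0 in each normal-diet library and 15, 7 and 7 counts in those of the high-fat diet, which is at least 3.37-fold higher.

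All 6 transcripts of glycosylation, membrane and scaffold genes were lower, Colgalt1 included, beside 68.1 percent of all 47. Poglut1, which adds glucose to Notch receptors, fell from 168, 202 and 149 counts to 0, 4 and 17 (edgeR adjusted p = 0.00806), and its high-fat mean of 6.31 normalized counts is 2.0025 without library 12. The autophagy protein Wipi2 fell from 63, 49 and 83 to 4, 12 and 3, with a high-fat mean of 6.35 and of 3.52 without library 11. Transcripts of the endocytosis factor Fcho2 and of the membrane protein Itm2b fell from 94.4 ± 15.9 to 33.1 ± 4.57 and from 18.9 ± 1.59 to 1.99 ± 0.223 normalized counts. The cytoskeletal adaptor Obsl1 fell from 55, 22 and 25 counts to 2, 3 and 8, and its normal-diet mean of 34.2 is 22.0 without library 7. The last 2 genes, for which no role is given here, also had lower transcripts. Lrrc42 went from 62, 54 and 49 counts to 3, 4 and 5 (edgeR adjusted p = 0.00183). C030006K11Rik went from 135, 145 and 68 to 5, 2 and 15, with a high-fat mean of 6.89 normalized counts and of 3.75 without library 12.

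The genes that carry out splicing were looked up in the same table. Of 94 splicing factor genes, 5 annotated transcripts are listed, 4 higher and 1 lower, the lower one being the Leng8 retained-intron transcript. Hnrnph1, a nuclear ribonucleoprotein, rose from 791 ± 66.9 to 1273 ± 83.2 normalized counts (edgeR adjusted p = 0.0300). A nonsense-mediated decay transcript of Hnrnpu had 49, 8 and 57 counts and then 856, 1503 and 383 (edgeR adjusted p = 0.00674). Transcripts of Cwc22 and of the U2 subunit Sf3a2 were higher, from 0 counts to 141, 67 and 71 and from 1, 1 and 1 to 19, 11 and 17. Assembled transcripts over Dhx16 (higher, with 528, 1 and 246 counts on the high-fat diet), Srsf11 and Leng8 (lower) are listed too. Those over Srsf11 and Leng8 each overlap 2 genes. Of 13 splicing factor kinases and 20 genes of nonsense-mediated decay and the exon junction complex, 0 have a listed transcript. Of 20 genes of the nuclear exosome and RNA surveillance only an assembled transcript over Nxf1 is listed. This transcript overlaps 3 genes and had 0, 995 and 4538 counts on the high-fat diet. Unlisted transcripts of these genes were not analysed here, and the share of all genes with a listed transcript was not computed.

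The retained-intron transcripts also stand for their genes in the authors' deposited enrichment tables. Of the 35 sets, 29 count at least 1 of them as a member gene, and 31 of the 45 with a human symbol appear in some set. Over the whole series 391 listed transcripts have a human symbol, and the counts in the sets were not tested against the share of the 45. In the set of cellular responses to external stimuli, 2 of 8 members are the transcripts of Mdm4 and Wipi2 (q = 0.915, from the authors' deposited table). In the set of protein-containing complex assembly 7 of 37 are retained-intron transcripts, of Akap9, Rps3, Cd2bp2, Obsl1, Fcho2, Slc7a6 and Mdm4 (q = 0.542 in the authors' deposited table), and 6 of the 7 are lower, as are 11 of all 37. In the set of regulation of catalytic activity 4 of 8 retained-intron transcripts are lower, as are 20 of all 54 members. In that of regulation of hydrolase activity 1 of 4 is lower, as are 10 of all 32. The lowest q of the 35 sets is 0.119, so 0 of them pass 0.05.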

How the data were processed

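Per the submitters' processing notes, Trimmomatic, HISAT2, StringTie and DESeq were used on the genome build GRCm38, and their versions and settings are unknown here. The authors deposited estimated counts per transcript for each library, whole numbers as deposited, and the same counts divided by a size factor and rounded, which are used here as a score only. The authors' deposited table also gives their mean of the scaled counts as a signal, a linear fold change (a ratio), a log2 fold change, a p-value and an adjusted p-value. The enrichment tables give a p-value and a q-value per set, both from the authors. The number of transcripts they tested was worked out from their adjusted and unadjusted p-values, and 730 of 831 lines gave it to within 0.05 percent.

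Size factors were recovered as the median of count over scaled count at counts of at least 5000 and lie between 0.908 and 1.14; dividing by them gave 4986 of 4986 deposited scaled values to within 1. The test was edgeR 4.0.16 under R 4.3.3 (glmQLFit, glmQLFTest, filterByExpr with a minimum count of 10, these size factors, Benjamini-Hochberg over all tested transcripts, threshold 0.05), and the same was done on counts summed per deposited locus. The standard error is the log2 fold change over the square root of F. A fold against a diet at 0 is a lower bound against 3 counts per library and covers counting error only. This fit was first run on simulated counts in which most transcripts did not change. The listed transcripts were all selected for a difference, so that run does not show the error rate of the fit on them. The alternatives were limma-voom 3.58.1, DESeq2 1.42.0, other scalings and filters, and leaving out each library. Exon structures and sequences come from GENCODE M21. Transcripts named with the count of every library were those with a listed partner, the 8 most abundant, and the 5 with the largest rise and the 5 with the largest fall; the values of others were added by host gene role. The members, gene lists and tests were chosen with earlier results of these data known. A value without a library is given where leaving it out moved a fold by over 1.5 times, with 0.5 added to each mean, as it did in 16 of the 47 transcripts.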

Additional observations from a re-analysis of the deposited data

How the results depend on the processing

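Of the 43 tested retained-intron transcripts, 0 changed direction under an alternative that tested them. Leaving out 1 library could not reverse a direction, because the diets of each transcript did not overlap. The scalings lowered the log2 fold changes by medians smaller than the smallest rise (1.62 by edgeR, Plekhg5), so little could be learned from them either. TMM, DESeq2 size factors and library totals each tested 42 of the 43, without Slc50a1 ENSMUST00000144777, and a mean count of at least 50 tested 20 of them. Under each of these 3 scalings the 42 kept their call, and 43 were called in all, 13 higher and 30 lower, with 1 that had not been tested before. The scalings lowered the log2 fold changes of all transcripts by medians of -0.49, -0.54 and -0.25 and moved the median of the retained-intron transcripts from -1.50 to -2.18, -2.23 and -1.92. The counts called were 47 without a filter (median -1.68). With a mean count of at least 50 they were 21, 3 higher and 18 lower (median -1.68), because fewer were tested. Adjusted over all transcripts the authors tested, 0 were called, 0 higher and 0 lower, and 0 summed loci. The p-values for this came from fits on the listed transcripts only, so it does not show what a fit on all transcripts would call. Without 1 library, the calls ranged from 40 to 44, those lower from 26 to 30, those higher were 14, and the median ranged from -1.78 to -1.49. The summed log2 fold change of Slc50a1, 0.21, became -0.19 with TMM, -0.28 with DESeq2 size factors and -0.045 with library totals, and ranged from -0.18 to 0.73 without 1 library. That of Colgalt1 became -0.039 with DESeq2 size factors. The 3 scalings were computed from the listed transcripts only, all of them selected for a difference between the diets. The cause of the reversals at Slc50a1 and Colgalt1 was not tested. No paired analysis was possible because the diets share no library numbers. The depth of whole libraries is not known, which limits what a count of 0 shows.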
